A study of Homo sapiens with 12 samples.

Results

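Interferon response genes were followed through siRNA transfections of 3 human kidney cell lines. The set holds 44 genes, taken by symbol from a list and not by a threshold on their values, out of 20979 entries in the expression table. All 44 were found, and 43 passed the filter on low values, which kept 12276 entries above 1 FPKM (fragments per kilobase of transcript, scaled to the size of the library) in at least 3 libraries. MX2 did not pass. OAS2, RSAD2, CMPK2, XAF1 and ISG20 passed only through A704, with fewer than 3 libraries above 1 FPKM in the other lines, so their place above the other lines is set by the filter. The genes fall into 8 roles: RNA sensors, transcription factors, the ISG15 system, the IFIT, OAS and IFITM families, other antiviral effectors and other induced genes.

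Interferons are secreted proteins that cells release when sensors such as DDX58 (RIG-I) and IFIH1 (MDA5) bind double-stranded or uncapped RNA. They act through paired receptors and the JAK kinases on transcription factors such as STAT2, which joins IRF9 in a complex that binds interferon-stimulated response elements (ISRE) in the promoters of antiviral genes. Epithelial cells of the kidney can run this programme without immune cells, and tumour lines differ in how active it is at rest.

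PolyA RNA was sequenced 48 h after lipid transfection of siRNA at 25 nM. A704 and CAKI-1 derive from renal cancers, whereas HK2 cells are immortalised but not malignant. Each line received a control siRNA, an siRNA labelled LATS, for the Hippo pathway kinases, and 2 siRNAs against PTPN14, a tyrosine phosphatase that binds the Hippo effector YAP1. The siRNAs against PTPN14 are called PTPN14-1 and PTPN14-2 after the sample titles. The descriptions number them the opposite way in all 3 lines. Each siRNA gave 1 library per line, so every group held 3 libraries (1 of each line). All 12 libraries, the controls included, came from transfected cells, and untransfected cells were not analysed here. The labels name no separate cultures behind the libraries of a line. The p-values therefore measure only how these libraries vary, which may be technical.

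The effective depth read from whole-read steps in the low values ran from 16.9 to 23.3 M reads. PTPN14 stood at 21.4 to 28.7% of the control of the same line with PTPN14-1 and at 31.2 to 37.5% with PTPN14-2. LATS1 stood at 22.5 to 30.7% with the LATS siRNA, and LATS2 at 98.2 to 122%. All 8 kidney epithelial markers were above 1 FPKM in at least 1 library, but EPCAM was at most 0.25 FPKM in A704, and CDH1 was above 0.2 FPKM only there, at 16.0 to 21.4 FPKM. Of 7 leukocyte markers, CD3E was at 0 in every library and PTPRC at most 0.04 FPKM. CD68 and ITGAM were the 2 above 1 FPKM in any library, ITGAM at 1.42 to 2.02 FPKM in A704 and at most 0.27 elsewhere. The summed leukocyte list was 136 to 200 FPKM in A704, 31.8 to 43.5 in HK2 and 18.1 to 25.6 in CAKI-1, nearly all of it CD68, and its part in the line differences was not tested. Summed endothelial markers did not exceed 0.42 FPKM in any library. Summed fibroblast markers were 54.6 to 83.5 FPKM in HK2 and at most 2.56 FPKM in the other lines, and their part in the line differences was not tested.

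The promoters of 5 members are shown because they differ in the elements through which interferon acts. Each runs over the 180 bases before the RefSeq start of the gene (GRCh38.p14), 5′ to 3′ on the gene's strand. Capitals mark the ISRE core, which is GAAA, any 2 bases and GAAA, or TTTC, any 2 bases and TTTC for the same core on the opposite strand. They also mark the GAS core TTCNNNGAA, which STAT dimers bind and which reads the same on both strands (N is any base). The windows lie at chr1:1013317-1013496 (plus strand) for ISG15, chr10:89392443-89392622 (plus) for IFIT1, chr12:112938294-112938473 (plus) for OAS3, chr5:132490774-132490953 (minus) for IRF1 and chr17:56914050-56914229 (minus) for TRIM25.
ISG15: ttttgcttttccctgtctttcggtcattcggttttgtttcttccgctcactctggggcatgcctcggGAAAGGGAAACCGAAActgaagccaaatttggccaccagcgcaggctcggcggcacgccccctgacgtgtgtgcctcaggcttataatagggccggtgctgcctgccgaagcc
IFIT1: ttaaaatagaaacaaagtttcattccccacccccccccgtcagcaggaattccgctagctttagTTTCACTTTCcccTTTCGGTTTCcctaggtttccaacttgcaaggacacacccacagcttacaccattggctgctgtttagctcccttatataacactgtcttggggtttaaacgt
OAS3: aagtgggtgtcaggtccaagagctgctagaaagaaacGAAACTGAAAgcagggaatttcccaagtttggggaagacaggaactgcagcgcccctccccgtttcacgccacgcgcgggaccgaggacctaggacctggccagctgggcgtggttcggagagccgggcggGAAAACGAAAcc
IRF1: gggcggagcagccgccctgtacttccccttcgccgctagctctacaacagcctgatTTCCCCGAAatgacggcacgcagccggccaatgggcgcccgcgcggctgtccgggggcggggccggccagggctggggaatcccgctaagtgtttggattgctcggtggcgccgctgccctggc
TRIM25: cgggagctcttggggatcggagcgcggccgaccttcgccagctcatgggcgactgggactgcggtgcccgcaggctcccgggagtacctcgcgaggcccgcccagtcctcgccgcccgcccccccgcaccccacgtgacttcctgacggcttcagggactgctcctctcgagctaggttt

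ISG15, IFIT1 and OAS3 each carry 2 ISRE cores in their windows; those of ISG15 overlap. IRF1 carries a GAS core and no ISRE core, and TRIM25 carries neither. RefSeq windows of 300 bases, from 250 before to 50 after a start, were matched for 36 of the 44 members, DDX58 under its newer symbol RIGI. An ISRE core stood in at least 1 window of 23 of these 36 members (63.9%). By window the count was 27 of 48 (56.3%), against 3.57% of all 35116 windows in the table. The GAS core stood in 13 of the 48 windows (27.1%), against 7.66% of all windows. IFIT2, MX2, OAS2, OASL, IRF7, USP18, TRIM22 and IFITM2 were not matched. A match describes letters in a window and not a site of binding.

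Many members also lie side by side. In GENCODE release 29 (GRCh38), OAS1 (chromosome 12, 112906777 to 112933222), OAS3 (112938352 to 112973249) and OAS2 (112978395 to 113011723) follow each other on the plus strand. IFIT2 (chromosome 10, 89283694 to 89309276), IFIT3 (89327894 to 89340971), IFIT1 (89392546 to 89406486) and IFIT5 (89414586 to 89421001) form another row. RSAD2 (chromosome 2, 6865806 to 6898239) and CMPK2 (6840570 to 6866635) overlap on opposite strands. The annotated spans of IFITM2 (chromosome 11, 307631 to 315272) and IFITM1 (313506 to 315272) overlap on the same strand, and the IFITM genes are close copies. How the authors assigned shared reads is not given in the sources used here, so values of single members of these pairs are uncertain.

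The question of the line comparison was how far these genes were expressed in each line. A704 stood far above the other lines. The 44 members together took 2802 FPKM in the A704 control, 281 FPKM in the HK2 control and 502 FPKM in the CAKI-1 control. These sums were 0.798%, 0.0813% and 0.129% of all FPKM. In A704, 40 or 41 members exceeded 10 FPKM in each library, against 6 to 9 in HK2 and 10 to 15 in CAKI-1. In bulk RNA, a larger share of cells expressing a gene and more RNA per cell cannot be told apart.

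**Figure D1:**
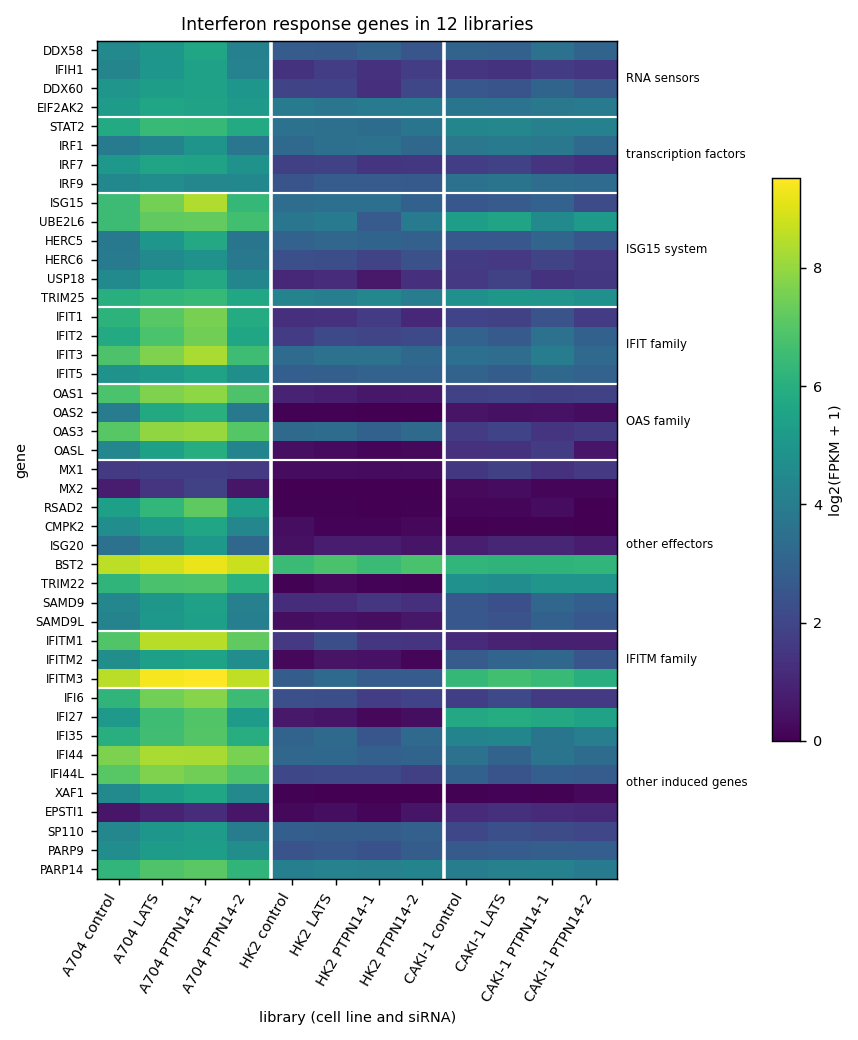
Level of each of the 44 genes (rows, grouped by role) in the 12 libraries (columns, by cell line and siRNA), as log2(FPKM + 1). The A704 columns are brightest for most genes, and within A704 the LATS and PTPN14-1 columns are brighter than the control and PTPN14-2 columns; MX1, IFI27 and EPSTI1 do not set A704 apart from CAKI-1.

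All 38 members that pass the filter in the libraries outside A704 were called higher in A704 than in HK2 (limma on log2(FPKM + 1), adjusted p at or below 0.05), where 38.2% of the 11781 genes that pass in this way were called higher. Their median difference was 3.41 on the log2 scale. The 5 members that passed only through A704 were called too, which the filter fixes, and 40.6% of all 12276 genes were called higher. The lowest A704 value exceeded the highest HK2 value for all 44 members, MX2 and the 5 that passed only through A704 included. The share of all genes separated in this way was not counted. Against CAKI-1, 35 of the 38 were called higher (37% of the 11781 genes; with the other 5 members, 40 of 43 and 39.3% of all genes) and 1, EPSTI1, was called lower (43.5% of the 11781 genes, 41.8% of all), with a median difference of 2.502. The EPSTI1 call was lost with a pseudocount of 0.1 FPKM, with no filter on low values, and without the LATS, PTPN14-2 or control library of A704 or the LATS or control library of CAKI-1. The A704 and CAKI-1 values did not overlap, with A704 higher, for 40 members, again with no count over all genes. The 4 exceptions were IRF1, MX1, IFI27 and EPSTI1. The background of calls between these lines was high in both directions.

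HK2 and CAKI-1 differed less. Of the 43 members, 6 were called higher in HK2 (41.3% of all genes) and 21 lower (40.4%), with a median difference of -0.39. The 6 members higher in HK2 were OAS3, SP110, BST2, HERC6, ISG15 and IFITM1. The count called in either direction was 27 and ran from 23 to 29 when single libraries were left out.

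Among the sensors, DDX58 averaged 29.2 ± 13.4 FPKM in A704 against 8.06 ± 1.91 for CAKI-1 and 5.85 ± 0.951 for HK2 (SD, n = 4 libraries of a line, with different siRNAs). IFIH1 averaged 27.4 ± 11.5 FPKM in A704 and under 2 FPKM in the other lines. EIF2AK2 (PKR), a kinase that halts translation on double-stranded RNA, was more even, at 40.2 ± 6.23 FPKM in A704 against 12.6 ± 1.09 for CAKI-1 and 13.5 ± 0.840 for HK2. All 4 sensors were called higher in A704 than in each other line, and the least of these differences was 1.49 on the log2 scale.

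Of the transcription factors, IRF7, which amplifies interferon production, set A704 apart most. It stood at 28.5 to 45.6 FPKM in A704, 1.79 to 2.54 in HK2 and 1.32 to 2.59 in CAKI-1, a log2 difference of 3.58 (SE 0.11, limma adjusted p = 3.42e-12) from HK2 and 3.68 from CAKI-1. IRF9 stood at 20.3 to 24.1 FPKM in A704, 4.55 to 5.73 in HK2 and 9.11 to 11.7 in CAKI-1. IRF1 overlapped between lines, with 12.4 to 29.4 FPKM in A704 and 8.56 to 14.4 in CAKI-1, and its difference from CAKI-1 was the least among the factors, at 0.53 (SE 0.13).

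Some antiviral effectors were near 0 outside A704. OAS2, an enzyme that makes the oligoadenylates that switch on RNase L, was at 13.5 to 65.4 FPKM in A704, 0.01 to 0.04 in HK2 and 0.26 to 0.40 in CAKI-1. RSAD2 (viperin) was at 39.1 to 140 FPKM in A704 and never above 0.23 FPKM elsewhere. TRIM22, an antiviral ubiquitin ligase, separated the lines in another way, with 66.1 to 114 FPKM in A704, 24.5 to 30.0 in CAKI-1 and 0.05 to 0.17 in HK2. The log2 difference of TRIM22 between HK2 and CAKI-1 was -4.73 (SE 0.13, limma adjusted p = 3.72e-12). BST2 (tetherin), which holds budding virions on the cell, was abundant in all lines, at 380 to 596 FPKM in A704, 87.5 to 110 in HK2 and 71.6 to 76.5 in CAKI-1.

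The IFITM proteins block fusion of viral and cellular membranes. IFITM3 reached 373 to 730 FPKM in A704 against 61.1 to 98.6 in CAKI-1 and 5.78 to 8.51 in HK2. IFITM1, by contrast, was at 0.78 to 1.28 FPKM in CAKI-1 and 1.74 to 3.83 in HK2, below the A704 range of 122 to 357 FPKM. Neighbouring members of a family therefore did not rank the lines alike.

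MX1, MX2 and EPSTI1 were low in A704, and IFI27 was at a like level in A704 and CAKI-1. MX1, a GTPase that traps viral particles, was at 2.04 to 2.39 FPKM in A704, 1.55 to 2.46 in CAKI-1 and 0.22 to 0.25 in HK2. MX2 was at 0.50 to 2.55 FPKM in A704, 0.10 to 0.23 in CAKI-1 and listed at 0 in all HK2 libraries. EPSTI1 was at 0.50 to 1.29 FPKM in A704 and 1.09 to 1.43 in CAKI-1. IFI27, a mitochondrial protein widely used as a marker of interferon action, was at 33.9 to 123 FPKM in A704, 43.5 to 57.9 in CAKI-1 and 0.14 to 0.57 in HK2. The A704 and CAKI-1 ranges of MX1, EPSTI1 and IFI27 overlapped.

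The siRNA comparison asked whether loss of PTPN14 or LATS transcripts moved these genes, and A704 was taken by itself. There, the LATS and PTPN14-1 libraries were higher for nearly every member, and the PTPN14-2 library was close to control. The summed FPKM of the members was 2802 with control, 4792 with LATS, 5744 with PTPN14-1 and 2770 with PTPN14-2. With 1 library per siRNA in A704, a single ratio has no replicate check. All 43 tested members were above the A704 control with the LATS siRNA, 42 with PTPN14-1 and 10 with PTPN14-2. At least 1.5-fold higher on the FPKM + 1 scale were 29 of 43 with LATS (1.07% of all genes), 35 with PTPN14-1 (2.57%) and 0 with PTPN14-2 (0.407%). Between the PTPN14 siRNAs, 36 of 43 were at least 1.5-fold higher with PTPN14-1 (3.45% of all genes). The median log2 ratios of the members to control were 0.66, 0.97 and -0.09 for LATS, PTPN14-1 and PTPN14-2. The log2 ratios of PTPN14-2 to control ran from -0.40 to 0.31. The A704 control was the only library with an RNA integrity number under 10 (9.6). Its part in the ratios was not tested. CD68, from the leukocyte list, stood at 134, 198, 178 and 145 FPKM in A704 with control, LATS, PTPN14-1 and PTPN14-2. ITGAM, from the same list, stood at 1.73, 1.91, 2.02 and 1.42 FPKM, and PTPRC did not exceed 0.01 FPKM there. The part of these markers in the ratios was not tested.

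**Figure D2:**
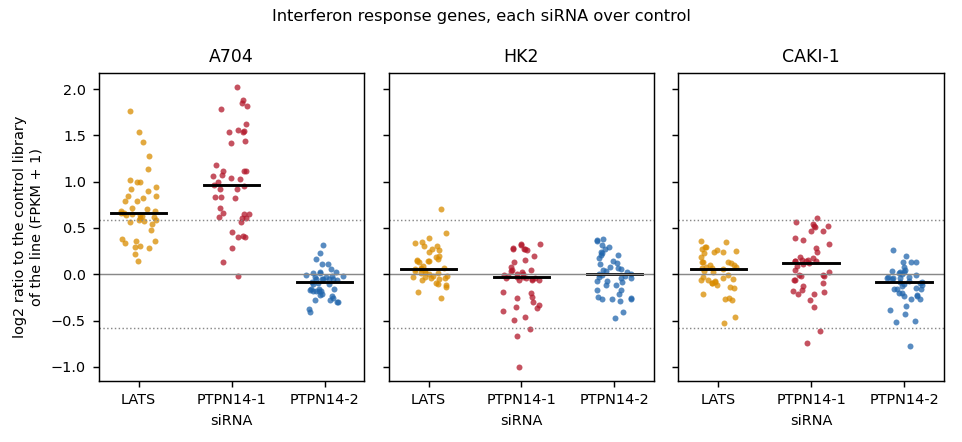
Log2 ratio of each siRNA library to the control library of the same line (FPKM + 1) for the 43 tested genes (points); black bars are medians and dotted lines mark 1.5-fold. In A704 the LATS and PTPN14-1 points lie above 0 (medians 0.66 and 0.97) except IRF9 with PTPN14-1, while PTPN14-2 and all siRNAs in HK2 and CAKI-1 scatter around 0.

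The OAS family held the steepest ratio. OAS2 stood at 15.4 FPKM with control, 54.6 with LATS, 65.4 with PTPN14-1 and 13.5 with PTPN14-2 in A704, which is 3.55 times control with LATS and 4.26 times with PTPN14-1. OAS1 stood at 113, 203, 236 and 114 FPKM in the same order, and OAS3 at 130, 244, 266 and 127 FPKM. OASL stood at 19.95, 41.4, 60.2 and 18.5 FPKM. In each of the 4 genes PTPN14-1 was highest, LATS next, and the control and PTPN14-2 lay close together.

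The ISG15 system attaches the ubiquitin-like protein ISG15 to other proteins. ISG15 itself stood at 91.0 FPKM with control, 183 with LATS, 331 with PTPN14-1 and 80.2 with PTPN14-2 in A704. HERC5, its main ligase, stood at 13.4, 30.6, 52.1 and 11.8 FPKM. USP18, which removes ISG15 and damps receptor signalling, stood at 22.8, 38.1, 52.8 and 19.4 FPKM. The step from LATS to PTPN14-1 was steeper for ISG15 and HERC5 than for the conjugating enzyme UBE2L6, at 90.1, 145, 149 and 97.7 FPKM.

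IFIT proteins bind foreign RNA ends. In A704 IFIT1 stood at 69.3 FPKM with control, 132 with LATS, 190 with PTPN14-1 and 56.8 with PTPN14-2. IFIT2 stood at 55.8, 113, 174 and 48.1 FPKM, and IFIT3 at 116, 202, 312 and 94.1 FPKM. IFIT5 varied less, from 25.7 to 44.2 FPKM. All 4 were highest with PTPN14-1 and lowest with PTPN14-2.

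Among the other effectors, RSAD2 stood at 39.96, 78.0, 140 and 39.1 FPKM with control, LATS, PTPN14-1 and PTPN14-2. ISG20, an exonuclease that degrades viral RNA, stood at 10.7, 18.1, 32.9 and 8.04 FPKM. MX2, outside the tested genes, stood at 0.69, 1.73, 2.55 and 0.50 FPKM, which keeps the same order at a low level. IFITM1 differed from these, with 122, 357, 357 and 144 FPKM, so that LATS and PTPN14-1 were level. IFI44L, at 132, 205, 175 and 118 FPKM, and IFI44, at 199, 315, 304 and 192 FPKM, were higher with LATS than with PTPN14-1.

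Members of the group of other induced genes with the highest ratios were IFI27 and IFI6. IFI27 stood at 33.9, 92.8, 123 and 36.7 FPKM with control, LATS, PTPN14-1 and PTPN14-2 in A704. IFI6, an endoplasmic reticulum and mitochondrial protein, stood at 73.2, 179, 217 and 91.1 FPKM. The smallest ratios to control with PTPN14-1 belonged to IRF9, MX1 and EIF2AK2. IRF9 stood at 20.6, 24.1, 20.3 and 20.6 FPKM, and MX1 at 2.07, 2.39, 2.37 and 2.04 FPKM. IRF9 was the 1 member that was not above control with PTPN14-1.

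**Figure D3:**
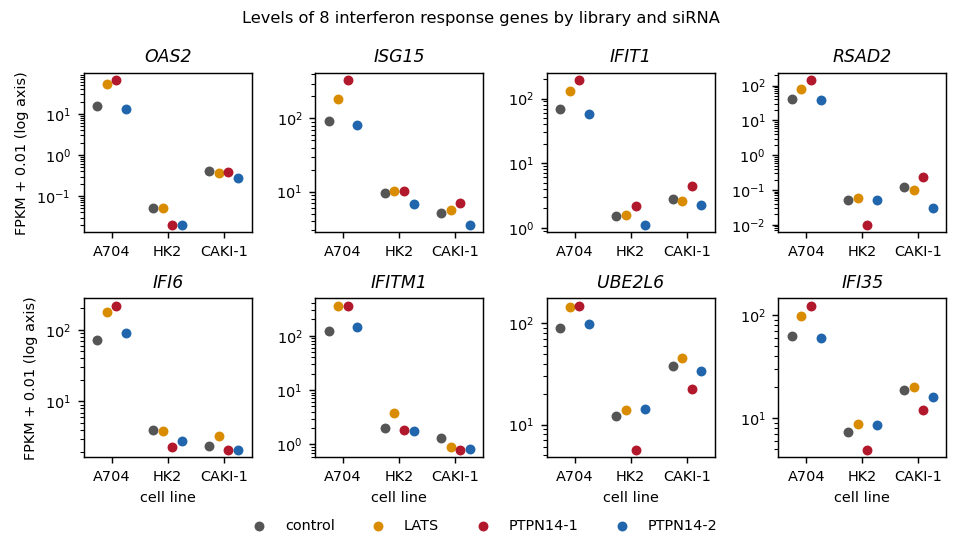
FPKM + 0.01 (log axis, a scale of its own in each panel) of 8 genes in each line (x axis), 1 point per library, coloured by siRNA. OAS2, ISG15, IFIT1, RSAD2, IFI6 and IFITM1 are highest in A704 with LATS or PTPN14-1; UBE2L6 and IFI35 are lowest with PTPN14-1 in HK2 (5.61 and 4.87 FPKM) and CAKI-1 (22.5 and 11.9 FPKM).

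In HK2 and CAKI-1 most members stayed near control on the FPKM + 1 scale. The summed FPKM ran from 271 to 317 in HK2 and from 455 to 534 in CAKI-1. In HK2, 1 of 43 was at least 1.5-fold higher with LATS (IFITM1, 0.22% of all genes), 0 with PTPN14-1 (1.45%) and 0 with PTPN14-2 (0.66%). With PTPN14-1 in HK2, 3 were at least 1.5-fold lower (UBE2L6, DDX60 and IFI6; 2.97% of all genes). In CAKI-1, 0 were at least 1.5-fold higher with LATS (0.806%), 1 with PTPN14-1 (IFIT2, 0.749%) and 0 with PTPN14-2 (0.644%). Lower by that fold in CAKI-1 were UBE2L6 and IFI35 with PTPN14-1 (2 of 43, 1.7% of all genes) and OASL with PTPN14-2 (1 of 43, 1.33%). Each of these counts is 3 or fewer of 43. The added 1 FPKM shrinks ratios of low values, so the counts are not on an equal footing with those of A704. On plain FPKM, DDX58, HERC5, IFIT1 and SAMD9 also stood at 1.52 to 1.59 times control with PTPN14-1 in CAKI-1. IFITM1 stood at 0.609 times control there.

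Between the PTPN14 siRNAs, IFIT1 was the 1 member at least 1.5-fold higher with PTPN14-1 in HK2 (2.03% of all genes). UBE2L6, DDX60, IFI35 and USP18 were lower by that fold (4 of 43, 3.1% of all genes). In CAKI-1, 6 were higher by it: ISG15, IFIT1, IFIT2, IFIT3, OASL and IFITM2 (1.26% of all genes). ISG15 stood at 5.05, 5.65, 6.96 and 3.49 FPKM in CAKI-1 and at 9.65, 10.1, 10.0 and 6.67 in HK2 with control, LATS, PTPN14-1 and PTPN14-2. In both lines its lowest value was with PTPN14-2. UBE2L6 stood at 12.2, 14.1, 5.61 and 14.3 FPKM in HK2 and at 38.1, 45.5, 22.5 and 34.0 in CAKI-1, lowest with PTPN14-1 in both, which is the reverse of its order in A704.

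Over the 3 lines together, limma was fitted with cell line as a block and the 4 siRNAs (6 residual degrees of freedom). With the LATS siRNA 0 of 43 members passed an adjusted p of 0.05 (0.122% of all genes were called in either direction). All 43 estimates were above 0, with a median of 0.27, and 2 had an unadjusted p under 0.05, beside 1381 of all 12276 genes. IFITM2 came nearest, at 0.44 (SE 0.10, limma adjusted p = 0.172), with 25.1, 0.15 and 5.66 FPKM in the A704, HK2 and CAKI-1 controls and 40.2, 0.42 and 7.51 with LATS. Without A704 the median was 0.06, and 27 of 43 estimates were above 0.

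With PTPN14-1, 1 of 43 members rose against control, a share near the 2.39% of all genes called higher. An unadjusted p under 0.05 was found for 13 members, beside 2801 of all 12276 genes. The member called was IFITM2, at 45.3, 0.39 and 8.20 FPKM in A704, HK2 and CAKI-1 with PTPN14-1, above control in 3 of 3 lines. Its difference was 0.52 (SE 0.10, limma adjusted p = 0.0128). The median of the members was 0.32 with A704 and 0.04 without it. Without A704, IFITM2 was not called, and UBE2L6 fell by 0.87 (SE 0.14, limma adjusted p = 0.0188) and IFI35 fell by 0.55 (SE 0.11, limma adjusted p = 0.0468), where 1.64% of all genes were called lower. Without the A704 control library alone, 0 members were called. The next smallest p-values belonged to DDX58, at 0.64 (SE 0.17, limma adjusted p = 0.0539), and IFIT1, at 0.77 (SE 0.22, limma adjusted p = 0.063).

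With PTPN14-2, 0 of 43 members were called (1.35% of all genes in either direction), and 1 had an unadjusted p under 0.05 (1837 of all 12276 genes). The median was -0.05. The sign of that median depended on single libraries: it was 0.15 without the A704 PTPN14-2 library, 0.05 without the HK2 control and 0.04 without the CAKI-1 control. The smallest p belonged to IRF7, at -0.32 (SE 0.13, limma adjusted p = 0.258), with 28.5, 1.91 and 1.32 FPKM with PTPN14-2 and 32.4, 2.51 and 2.31 FPKM with control in A704, HK2 and CAKI-1. It was below control in 3 of 3 lines.

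The comparison of the PTPN14 siRNAs with each other asked whether reagents against the same transcript acted alike, and here 7 of 43 members were higher with PTPN14-1 (5.52% of all genes were called higher). They were ISG15, at 1.13 (SE 0.28), IFIT1, at 1.03 (SE 0.22), IFIT3, at 0.93 (SE 0.24), the sensor DDX58, at 0.80 (SE 0.17), the factor IRF1, at 0.68 (SE 0.15), IFITM2, at 0.64 (SE 0.10), and TRIM25, a ubiquitin ligase that modifies DDX58, at 0.41 (SE 0.10). Their limma adjusted p-values ran from 0.00233 for IFITM2 to 0.0295 for IFIT3. For each of the 7, PTPN14-1 was above PTPN14-2 in all 3 lines. The median over the 43 members was 0.33, and 40 estimates were above 0.

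**Figure D4:**
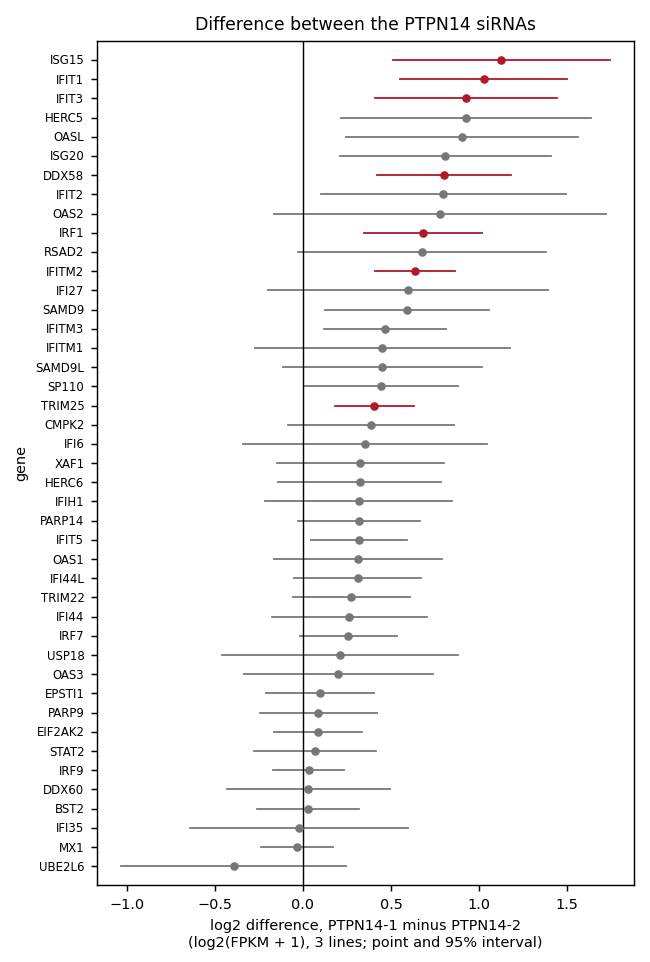
Log2 difference between PTPN14-1 and PTPN14-2 over 3 lines for the 43 tested genes (point) with its 95% interval (line); red marks an adjusted p at or below 0.05. The 7 red genes lie between 0.41 (TRIM25) and 1.13 (ISG15), and UBE2L6, at -0.39, is the lowest of all.

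IFIT1 stood at 190 FPKM with PTPN14-1 and 56.8 with PTPN14-2 in A704, 2.16 and 1.10 in HK2, and 4.45 and 2.22 in CAKI-1. In HK2 and CAKI-1 its control values, 1.52 and 2.79 FPKM, lay between the PTPN14 siRNAs. DDX58 stood at 46.9 FPKM with PTPN14-1 and 16.9 with PTPN14-2 in A704, 7.15 and 4.89 in HK2, and 10.9 and 7.35 in CAKI-1. IRF1 stood at 29.4 and 12.4 FPKM in A704, 10.8 and 8.35 in HK2, and 12.8 and 8.56 in CAKI-1. TRIM25 stood at 81.3 and 51.3 FPKM in A704, 19.97 and 15.2 in HK2, and 29.8 and 26.1 in CAKI-1. The gap of each was widest in A704 in FPKM. Without A704 the median over the members was 0.04. Without it 6 members were called, which were ISG15, IFIT1, DDX58 and IFITM2 again, with differences from 0.49 to 0.67, and UBE2L6 and IFI35, which fell by 0.89 and 0.54. In that run 2.02% of all genes were called higher and 2.59% lower. Without the A704 PTPN14-2 library the count was 2, IFIT1 and IFITM2, and without the CAKI-1 PTPN14-2 library it was 4.

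Whether the response in A704 differed from that in the other lines was tested in 2 ways. In a fit of 9 groups of line and target, where both PTPN14 siRNAs count as replicates (3 residual degrees of freedom), 0 members were called for PTPN14 in A704 (0% of all genes). The difference of that response from the mean of HK2 and CAKI-1 also gave 0 members (0% of all genes). In each, 0 members had an unadjusted p under 0.05, with medians of 0.42 and 0.42. Without the A704 PTPN14-2 library, which leaves 1 PTPN14 library in A704, the medians were 0.97 and 0.98. Without the A704 PTPN14-1 library they were -0.09 and -0.07. The spread in that fit comes from the gap between the PTPN14 siRNAs. For ISG15 the difference of responses was 0.95 (SE 0.97). The interval is wide, so a p that misses the threshold does not show that the lines respond alike.

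A fit chosen after the A704 ratios had been seen, and therefore no independent support for them, gave A704 its own effect of each siRNA and took the spread from HK2 and CAKI-1 (3 residual degrees of freedom). It assumes that an A704 library varies as those of the other lines do, and A704 has 1 library per siRNA. The 5 members that passed only through A704 are near 0 in the other lines, so the fit has no response of theirs to compare, and their calls are not read here. With PTPN14-1, 9 of the other 38 members differed in the direction of a larger value in A704 (0.221% of the 11781 genes were called higher, and 0.31% of all 12276). IFI27 differed by 2.06 (SE 0.21, limma adjusted p = 0.0106), with at most 0.57 FPKM in HK2, and ISG15 by 1.63 (SE 0.18, limma adjusted p = 0.0151). The others were IFI6, OAS1, OAS3, IFI35, HERC5, UBE2L6 and USP18. Over 12 alternatives, the call was kept in 9 for IFI27 and IFI6, 8 for ISG15, 5 for OAS3 and IFI35, 2 for UBE2L6 and USP18 and 1 for OAS1 and HERC5. Of the 9, only ISG15 and HERC5 were above control with PTPN14-1 in both HK2 and CAKI-1. IFI27, IFI6, OAS1, OAS3, IFI35, UBE2L6 and USP18 were below control with PTPN14-1 in both lines and above it in A704. Their differences therefore include a fall in the other lines, slight for IFI27 in CAKI-1 (52.55 to 52.3 FPKM).

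With the LATS siRNA 0 of the 38 were called in this limma fit (0% of the 11781 genes; 0.0163% of all 12276 were called higher, OAS2 among them), and 21 had an unadjusted p under 0.05. With PTPN14-2, 0 of the 38 were called (0% of all genes in either direction), and 1 had an unadjusted p under 0.05. For the gap between PTPN14-1 and PTPN14-2, the 9 genes named above were called again (0.229% of the 11781 genes were called higher, and 0.326% of all), with USP18 at 1.78 and IFI35 at 1.55. This comparison shares the PTPN14-1 libraries with the one against control. With a pseudocount of 0.1 FPKM the calls were IFI6 and ISG15 for PTPN14-1 against control and 0 for the gap, and both counts were 0 without the HK2 PTPN14-1 library.

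By role, the 9 members called for PTPN14-1 were 4 of 6 of the ISG15 system, 2 of 3 of the OAS family and 3 of 9 other induced genes. The 5 other effectors, 4 sensors, 4 transcription factors, 4 IFIT genes and 3 IFITM genes were not among the 9. The other effectors had estimates from 0.23 to 0.93 and the sensors from 0.21 to 1.04. Estimates of the transcription factors ran from -0.06 to 0.83 and those of the IFITM genes from 0.46 to 1.74. The IFIT genes had estimates from 0.51 to 1.17.

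Other genes of the pathway were counted from a list of 78, of which 77 were in the table and 66 passed the filter. In A704, 15 of the 66 were at least 1.5-fold above control with LATS (1.07% of all genes), 29 with PTPN14-1 (2.57%) and 2 with PTPN14-2 (0.407%). In the 3-line fit 0 were called with LATS (0.122% of all genes in either direction) and 0 with PTPN14-2 (1.35%). With PTPN14-1, 3 of 66 rose (the receptor subunit IFNAR2, SP100 and ZNFX1), beside 2.39% of all genes. IRF2, a factor that competes with IRF1, was the 1 of 66 that fell, beside 3.47% of all genes. IRF2 stood at 19.6, 23.6, 16.3 and 20.2 FPKM in A704, 11.2, 13.9, 6.78 and 14.5 in HK2, and 14.3, 14.8, 7.49 and 16.8 in CAKI-1 with control, LATS, PTPN14-1 and PTPN14-2. It fell by 0.59 (SE 0.12, limma adjusted p = 0.0159) and was lowest with PTPN14-1 in 3 of 3 lines. Between the PTPN14 siRNAs, 7 of 66 were called higher with PTPN14-1, beside 5.52% of all genes. IRF2 was the 1 of 66 called lower, beside 759 of all 12276 genes.

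Of 9 ligands, IFNE alone passed the filter, at 0.92 to 1.38 FPKM in A704, 1.80 to 2.69 in CAKI-1 and at most 0.07 in HK2. IFNB1 (interferon beta) was at 0.06, 0.27, 0.88 and 0.12 FPKM in A704 with control, LATS, PTPN14-1 and PTPN14-2, which is about 1, 5, 14 and 2 reads. The 95% Poisson intervals, which cover counting error only, were 0.0253 to 5.57 reads for control and 7.65 to 23.5 for PTPN14-1. They were 1.62 to 11.7 reads for LATS and 0.242 to 7.22 for PTPN14-2. IFNL1 (interferon lambda) was at 0, 0.33, 0.57 and 0.12 FPKM in A704 and listed at 0 in all libraries of the other lines. IFNB1 and IFNL1 were below the filter and were not tested. Their listed A704 values fell in the order PTPN14-1, LATS, PTPN14-2, control. The IFNB1 intervals of neighbours in that order overlap, and IFNL1 has no read estimate, so the full order is not established.

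The receptor chain IFNAR1 and the kinase JAK1, which relays its signal, were present in all lines. IFNAR1 ran from 10.6 to 21.5 FPKM and JAK1 from 73.2 to 98.9 FPKM.

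Chemokines induced by interferon had wider ratios in A704. CXCL10 stood at 8.37, 19.7, 53.2 and 13.6 FPKM with control, LATS, PTPN14-1 and PTPN14-2, and CXCL11 at 1.14, 4.83, 11.7 and 2.01 FPKM. CCL5 stood at 4.49, 13.7, 23.7 and 9.13 FPKM. All 3 were higher than control with PTPN14-2 too, unlike most members. CXCL10 and CXCL11 were at most 0.24 FPKM outside A704. In the fit with own A704 effects, the PTPN14-1 response was compared for the 61 other pathway genes that pass the filter outside A704. The median difference was 0.50, larger in A704. That fit was chosen after the A704 ratios had been seen, and A704 has 1 library per siRNA in it.

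The promoter elements did not split the A704 ratios widely. The median ratio with PTPN14-1 was 2.11 in the 23 members with an ISRE core in a window and 1.96 in the 13 without. With LATS the medians were 1.68 and 1.54, and with PTPN14-2 they were 0.967 and 0.959. IRF1, with a GAS core alone, was at 2.07 times control with PTPN14-1, and TRIM25, with neither core, at 61.3, 74.8, 81.3 and 51.3 FPKM. These are descriptions of 36 genes, with no test.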

How the data were processed

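Gene levels came from 1 table of FPKM values for 12 libraries that the authors deposited. The header names no unit, which was read from the values. Per the submitters' processing notes, the aligner was STAR 2.4.0g1 and the genome build GRCh38.p1. Counter, annotation, strand setting and scaling: not given in the sources used here. IRF7 and IFI27 stand on 2 lines each, of which the line with values was used.

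Values were tested as log2(FPKM + 1), which understates changes of low genes, with limma 3.58.1 in R 4.3.3 (mean-variance trend, robust moderation, Benjamini-Hochberg threshold 0.05 over 12276 entries). The planned models had cell line and siRNA, or 9 groups of line and target; the fit with own A704 effects was added after the data were seen, as were the counts over entries above 1 FPKM in at least 3 libraries outside A704. Libraries of 1 line pair because they are the same cell line. Correlations of deviations from the siRNA means were 0.958 to 0.983 over 18 same-line pairs and -0.652 to -0.381 over 48 others. Deviations cancel out over the 3 lines of each siRNA, so negative values between lines are built in. These correlations show that the lines differ and do not test a pairing of cultures. Values or ranges were given for many of the up to 6 members with the smallest p per comparison and of the A704 ratios at the extremes. Among these, CMPK2 and SP110 have no values in the text, and OAS1 and IFI44L have only those in A704. Further members were chosen after their values were seen. The scripts were tested on simulated data. Members and lists were chosen with earlier results of these data known. Alternatives were another pseudocount, no filter, limma without trend or robust moderation, quantile normalisation, no line block, and each library or A704 left out. Results for 1 gene of the wider pathway list are not reported here.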

Additional observations from a re-analysis of the deposited data

Results flagged for a closer look

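The values here come from the fit with own A704 effects, a test of whether the response to an siRNA differed between A704 and the other lines (limma, log2(FPKM + 1), adjusted p at or below 0.05). Members that passed the filter only through A704 are left out. With PTPN14-1 against control, 9 members differed: IFI27 by 2.06, IFI6 by 1.91, ISG15 by 1.63, UBE2L6 by 1.59, HERC5 by 1.58, IFI35 by 1.51, USP18 by 1.46, OAS3 by 1.31 and OAS1 by 1.24. For PTPN14-1 against PTPN14-2, the same 9 differed: USP18 by 1.78, HERC5 by 1.69, IFI27 by 1.67, IFI35 by 1.55, UBE2L6 by 1.496, ISG15 by 1.36, IFI6 by 1.34, OAS3 by 1.28 and OAS1 by 1.09. All are larger in A704. Each of these calls was lost in at least 3 of 12 alternatives. For the gap, the call was kept in 7 alternatives for IFI35, USP18 and IFI27, 5 for HERC5, 4 for OAS3, 2 for ISG15 and IFI6, 1 for UBE2L6 and 0 for OAS1.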

How the results depend on the processing

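Members called numbered 43 to 44 for A704 against HK2 and 40 to 41 for A704 against CAKI-1 in every alternative run. Leaving out single libraries or A704 gave ranges of 0 to 4 members for PTPN14-1 against control, 2 to 10 for PTPN14-1 against PTPN14-2, 23 to 29 for HK2 against CAKI-1, and 0 throughout for LATS, for PTPN14-2 and in the 9-group fit. The extremes for PTPN14-1 against PTPN14-2 were 2 without the A704 PTPN14-2 library and 10 without the HK2 PTPN14-1 library. For PTPN14-1 against control 4 were called with a pseudocount of 0.1 FPKM and 2 with quantile normalisation; for PTPN14-1 against PTPN14-2, 4 were called with no filter. With no replicate block (cell line left out) 0 members were called in each siRNA comparison; the pairing by line is in the design. In the fit with own A704 effects, counts were over all 43 members, or 44 with no filter. PTPN14-1 against control gave 2 members with the smaller pseudocount (IFI6 and ISG15) and 2 with no filter (MX2 and OAS2). It gave 6 with quantile normalisation and 0 to 9 without single HK2 or CAKI-1 libraries. The gap between PTPN14-1 and PTPN14-2 gave 0 with the smaller pseudocount and 0 to 8 without single libraries. With no filter it gave 5 (MX2, ISG20, OAS2, RSAD2 and XAF1). None of the members flagged above was called with no filter in either comparison. The LATS count of this fit was 1 (OAS2, which passed the filter only through A704). It became 0 with the smaller pseudocount and 0 when any single HK2 or CAKI-1 library was left out. A704 libraries cannot be left out there. The cause was not tested. Counted per named member and alternative, the line comparisons kept 288 of 288 calls, the siRNA comparisons over the lines kept 115 and lost 29, and the fit with own A704 effects kept 131 and lost 205; none reversed. Depth limits IFNB1, which rests on 1 to 14 reads in A704.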
